A study of Mus musculus with 24 samples.

Results

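The interleukin-6 (IL-6) family of cytokines and its route to the nucleus through STAT3 were followed in neurons and glia of the mouse hippocampus 24 hours after kainic acid. Members were chosen by gene symbol for their known roles, 10 of the 53379 genes in the count table. They are the ligands Clcf1, Lif, Il6 and Cntf, the receptor subunits Il6st, Lifr, Osmr and Cntfr, the transcription factor Stat3 and the feedback inhibitor Socs3. The rule uses no measured value, but members were chosen with earlier results of these data known. The filter on low counts kept 9 of the 10, all but Cntf.

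Cytokines of this family bind a receptor subunit of their own and then gp130, the shared signal transducer encoded by Il6st. JAK kinases bound to gp130 phosphorylate STAT3, which enters the nucleus and turns on target genes, and 1 of them, Socs3, encodes a protein that binds gp130 and its JAK kinases and stops the signal. In the injured brain the family is known for signalling to astrocytes, in which STAT3 takes part in the reactive state, and for supporting the survival of neurons. Phosphorylation of STAT3 was not measured, only mRNA in nuclei.

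All groups came from adult male C57/BL6N mice, acquired when 8 weeks old and housed for 4 more weeks, that underwent the same anaesthesia and a craniotomy with an injection into the deep cortex beside the right hippocampus. KA mice received kainic acid, an agonist of glutamate receptors that causes status epilepticus, and SH (sham) mice received saline; KA mice without convulsive seizures had been left out by the study. Right hippocampi of 8 mice per treatment were combined into 3 pools, with 4 mice in replicate 1 and 2 mice in each of replicates 2 and 3. Nuclei were sorted by NeuN, a nuclear protein of neurons, into NeuN+ (neurons) and NeuN- (glia), so that each pool gave 1 library of each, 3 libraries in each of the groups SH neurons, KA neurons, SH glia and KA glia. NeuN- is a gate and not a cell type: it holds astrocytes, oligodendrocytes, microglia and other nuclei without NeuN.

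Counts per library ranged from 7769400 to 40364768. SH glia replicate 1 and KA glia replicate 2 were amplified from about 0.05 ng of RNA with 15 PCR cycles, and all others from about 1 ng with 10 cycles. Of 10 neuronal markers, 9 were higher in SH neurons than in SH glia, and 9 of 10 astrocytic, 9 of 10 microglial and 8 of 8 oligodendrocytic markers were lower. The separation was incomplete. For each library a share was taken as the median, over markers, of its CPM over the mean of the other fraction in that treatment. The astrocytic share in neurons was 5.81% to 22.8% in SH and 16.1% to 33.7% in KA. The shares of other types ranged widely. In KA neurons the microglial markers were at 2.30% to 7.19% of glia, the oligodendrocytic at 1.21% to 6.96% and those of oligodendrocyte precursors (OPC) at 3.12% to 11.0%. The pericytic share of 22.6% to 33.7% rested on 2 genes and the endothelial share of 39.4% to 46.0% on 1 gene. The other genes of these 2 sets were below 10 CPM in KA glia, so these shares do not describe the whole sets. The neuronal level in glia was 17.8% to 31.6% of that in neurons in SH and 11.8% to 30.5% in KA. In KA glia the summed oligodendrocytic markers (7488 to 14034 CPM) lay below those of SH glia (14283 to 29772 CPM), and so did the astrocytic markers (952 to 1921 against 2087 to 2963 CPM). In neurons the summed astrocytic markers were at 270 to 873 CPM in SH and 290 to 609 CPM in KA. The higher astrocytic share in KA neurons thus went with a lower level in KA glia. In such bulk samples fewer cells of a type and less RNA per cell cannot be told apart.

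Expression is given in CPM, the count scaled to the size of the library after TMM normalization. Changes are log2 fold changes (logFC) of KA against SH with their standard error (SE), from a quasi-likelihood model of edgeR with 4 group means over all 12 libraries, and a gene was called upregulated or downregulated at a false discovery rate (FDR) below 0.25 over 37598 genes. The replicate number of KA and SH pools tracked shared deviations, and where blocking on that number in a further fit (the replicate block) changed the call of a member, its value is given.

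Socs3 was upregulated in both neurons and glia, Clcf1 in both, and Lif in glia. Of the 9 members tested, 2 were upregulated in neurons against 0.279% of all genes tested, and 3 in glia against 0.442%. None was downregulated (background 0.0612% in neurons and 0.306% in glia). With the replicate block, 3 members were upregulated in neurons (1.94% of all genes), and in glia 6 were upregulated (3.47%) and 1 downregulated (4.17%). The 3 KA libraries lay above the 3 SH libraries for 3 members in neurons (5.27% of all genes) and for 4 in glia (3.61%), and lay below them for none (4.45% and 3% of all genes). The median logFC of the 9 members was 0.80 in neurons and 0.99 in glia, beside 0.00048 and 0.14 over all genes tested. Since earlier results were known when members were chosen, these counts and medians are descriptions and not independent evidence.

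**Figure D1:**
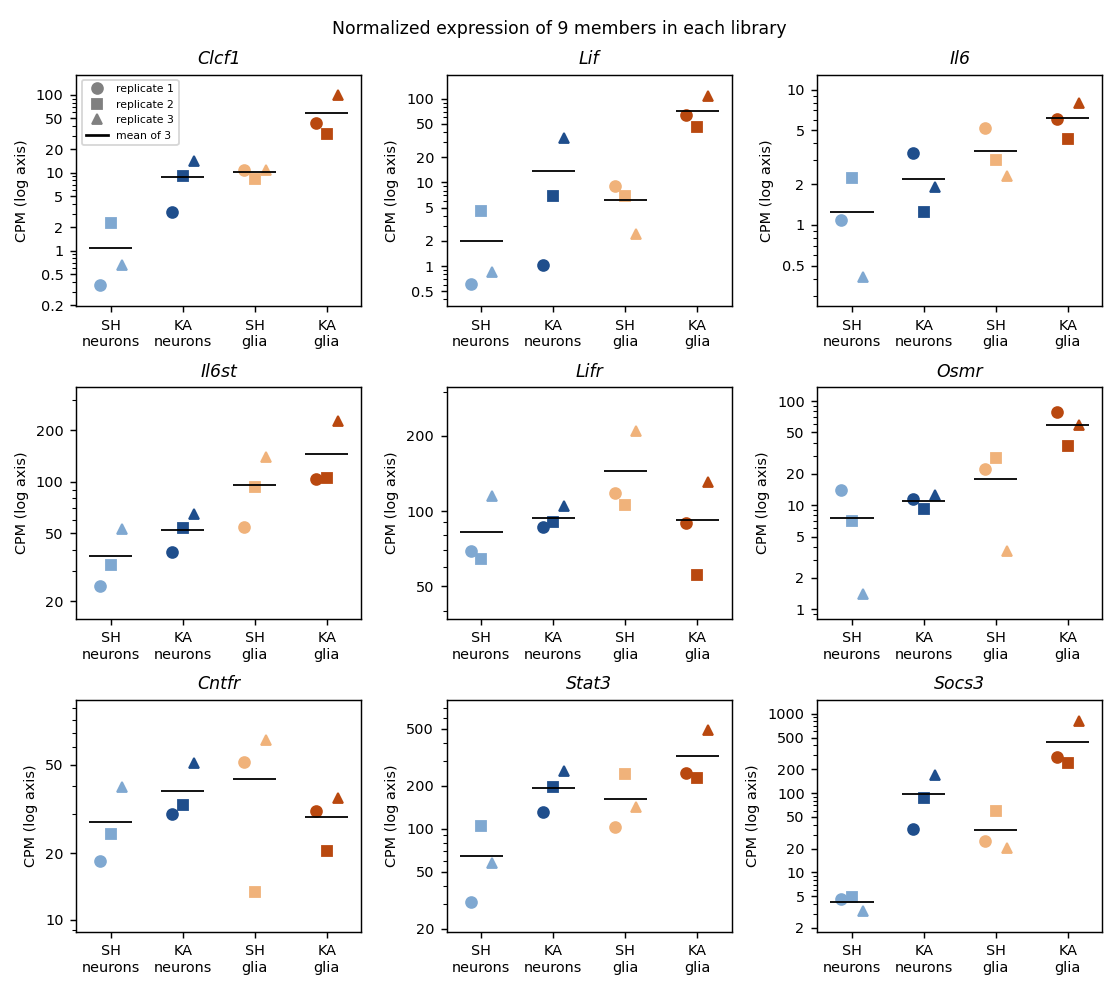
Normalized expression (CPM, logarithmic axes) of the 9 members that passed the filter, with 1 point per library, a symbol per replicate number and a line at the mean of each group. Socs3 and Clcf1 show KA points above all SH points in both neurons and glia, Lif does so in glia, and the points of Il6, Il6st, Lifr and Cntfr overlap between KA and SH.

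Among the ligands, Clcf1 (ENSMUSG00000040663, chr19:4214238-4223490, + strand, GRCm38) encodes cardiotrophin-like cytokine factor 1, which acts through the receptor of ciliary neurotrophic factor. In neurons it was measured at 0.363, 2.28 and 0.653 CPM in SH replicates 1, 2 and 3 and at 3.16, 8.99 and 14.1 CPM in KA replicates 1, 2 and 3. In glia it was at 11.0, 8.42 and 11.0 CPM in SH and at 43.2, 32.0 and 98.7 CPM in KA. Every KA library thus lay above every SH library of its cell type, and the KA neurons came close to the level of SH glia. Clcf1 was upregulated in neurons (logFC 2.97, SE 0.64, FDR 0.142 by edgeR) and in glia (logFC 2.52, SE 0.61, FDR 0.157 by edgeR). The neuronal call was lost on leaving out replicate 1 or 3 of the SH neurons or replicate 2 or 3 of the KA neurons, and without SH neurons replicate 2 the logFC was 4.07. The glial call was lost without any 1 of the SH glia libraries or without KA glia replicate 3, which lowered the logFC to 1.88. It was also lost without both libraries from 0.05 ng (FDR 0.701 by edgeR), and the neuronal call with limma-voom (FDR 0.567). With the replicate block both calls were kept, at FDR 0.00076 in neurons and 0.0015 in glia by edgeR. Of the exon bases of Clcf1, 8.17% lie within exons of another gene on the same strand (AC109138.7) in GENCODE M21. Reads there are dropped only if the annotation used for counting, GENCODE M16, holds that overlap, which was not checked.

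Lif (ENSMUSG00000034394, chr11:4257557-4272514, + strand), leukemia inhibitory factor, binds Lifr and gp130. In glia it was at 9.08, 6.96 and 2.42 CPM in SH and at 63.3, 46.4 and 107 CPM in KA. In neurons it was at 0.605, 4.59 and 0.857 CPM in SH and at 1.02, 6.91 and 33.5 CPM in KA. The glial groups were far apart, while in neurons KA replicate 1 stayed within the SH range and KA replicate 3 alone was high. Lif was upregulated in glia (logFC 3.57, SE 0.94, FDR 0.235 by edgeR), a call kept in 1 of the 6 fits without a glial library, that without KA glia replicate 1, and lost without both libraries from 0.05 ng (FDR 0.680). It was not called in neurons (logFC 2.76, SE 0.92, FDR 0.765 by edgeR), apart from the fit without KA neurons replicate 1, with FDR 0.194.

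Il6 (ENSMUSG00000025746, chr5:30013114-30019981, + strand) encodes interleukin-6 itself, which needs the subunit Il6ra beside gp130. It was at 1.09, 2.23 and 0.408 CPM in SH neurons and at 3.42, 1.25 and 1.90 CPM in KA neurons. Levels in glia were 5.23, 3.02 and 2.30 CPM in SH and 6.08, 4.32 and 7.95 CPM in KA. The groups overlapped in both cell types and Il6 was not called (logFC 0.80, SE 0.67 in neurons and 0.81, SE 0.66 in glia).

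Cntf (ENSMUSG00000079415, chr19:12763660-12765632, - strand), ciliary neurotrophic factor, is a cytokine of astrocytes and Schwann cells. It had between 0 and 11 counts per library, was listed at 0 counts in SH glia replicate 1, and was not tested. In GENCODE M21, exons of Zfp91 on the same strand cover 78.9% of the exon bases of Cntf. Counting with default settings drops reads shared by exons of different genes. The counts used GENCODE M16, in which this overlap was not checked, so the level of Cntf cannot be relied on here.

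On the scale of CPM per kb of exon, which allows levels of different genes to be compared, the order of the ligands in SH glia was Clcf1 at 2.66 ± 0.390, Il6 at 1.45 ± 0.628 and Lif at 1.41 ± 0.783 (SD, n = 3). In KA glia it was Lif at 16.6 ± 7.24, Clcf1 at 15.2 ± 9.39 and Il6 at 2.52 ± 0.747 CPM per kb. Lif and Clcf1 did not differ there beyond their spread, and both stood above Il6. In KA neurons Lif was at 3.18 ± 3.98, Clcf1 at 2.30 ± 1.43 and Il6 at 0.902 ± 0.458 CPM per kb, with spreads that overlap.

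**Figure D2:**
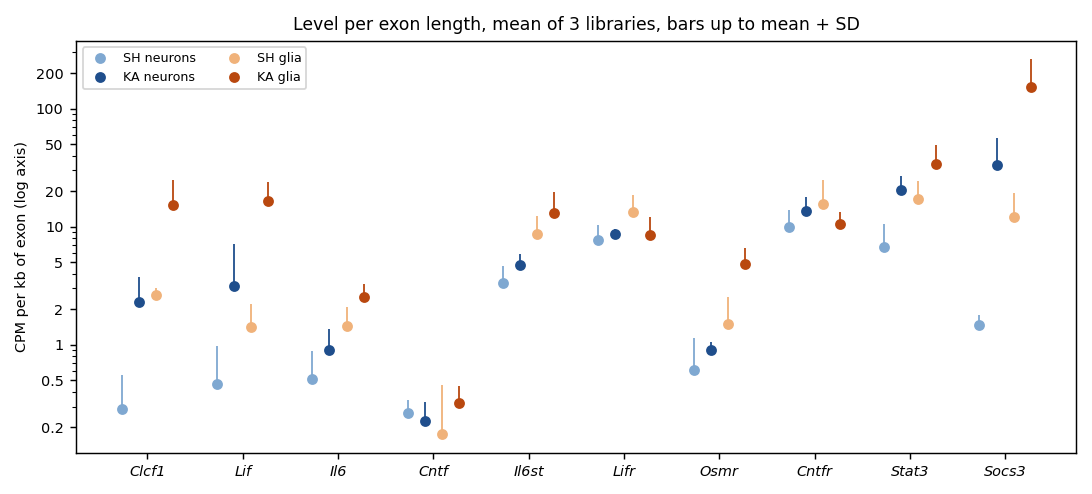
Level of all 10 members in CPM per kb of exon (logarithmic axis), as the mean of 3 libraries for each of the 4 groups, with bars that reach from the mean to the mean plus 1 SD. Socs3 spans the widest range, from 1.49 in SH neurons to 153 CPM per kb in KA glia, and the value of Cntf rests on at most 11 counts per library.

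Among the receptor subunits, Osmr (ENSMUSG00000022146, chr15:6813577-6874969, - strand) encodes the subunit that binds oncostatin M together with gp130. In glia it was at 22.0, 28.4 and 3.65 CPM in SH and at 79.0, 37.1 and 59.5 CPM in KA. In neurons it was at 13.9, 7.04 and 1.39 CPM in SH and at 11.4, 9.09 and 12.6 CPM in KA. The KA glia lay above all SH glia, with SH glia replicate 3 far below the others, and the neuronal groups overlapped. Osmr was not called in glia with 4 group means (logFC 1.70, SE 0.68, FDR 0.801 by edgeR) and was called with the replicate block (logFC 2.04, SE 0.59, FDR 0.0817 by edgeR).

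Il6st (ENSMUSG00000021756, chr13:112464070-112510086, + strand), the gene of gp130, was at 24.8, 32.7 and 53.2 CPM in SH neurons and at 39.0, 53.4 and 64.5 CPM in KA neurons. Glial levels were 54.5, 93.3 and 139 CPM in SH and 104, 106 and 228 CPM in KA. Each KA library was above the SH library of its number, but the groups overlapped. Il6st was not called (logFC 0.50, SE 0.43 in neurons and 0.61, SE 0.43 in glia), and with the replicate block it was called in glia (FDR 0.244 by edgeR).

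Lifr (ENSMUSG00000054263, chr15:7090614-7197489, + strand), the subunit shared by the receptors of Lif, Clcf1 and Cntf, was at 69.1, 64.4 and 115 CPM in SH neurons and at 86.3, 90.7 and 105 CPM in KA neurons. Glia had 118, 106 and 209 CPM in SH and 89.5, 55.5 and 131 CPM in KA. In glia each KA library was lower than the SH library of its number, with overlap between the groups. Lifr was not called (logFC 0.18, SE 0.39 in neurons and -0.65, SE 0.39 in glia), and with the replicate block it was downregulated in glia (logFC -0.67, SE 0.23, FDR 0.172 by edgeR). The astrocytic and oligodendrocytic marker sums were lower in KA glia too, and their part in the lower Lifr was not tested.

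Cntfr (ENSMUSG00000028444, chr4:41657498-41697089, - strand) encodes the ligand-binding subunit for Cntf and Clcf1. It was at 18.5, 24.3 and 39.9 CPM in SH neurons and at 30.1, 33.0 and 50.9 CPM in KA neurons. Glia had 51.4, 13.4 and 64.7 CPM in SH and 31.0, 20.5 and 35.6 CPM in KA. The groups overlapped in both cell types and no call was made (logFC 0.46, SE 0.47 in neurons and -0.57, SE 0.47 in glia). Per kb of exon, the order of receptor subunits in SH neurons was Cntfr at 9.90 ± 3.98, Lifr at 7.68 ± 2.59, Il6st at 3.32 ± 1.32 and Osmr at 0.615 ± 0.518 CPM per kb (SD, n = 3). Cntfr and Lifr did not differ beyond their spread, and Osmr stood lowest in every group.

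Stat3 (ENSMUSG00000004040, chr11:100885098-100939540, - strand), the transcription factor that carries the signal, was at 30.7, 104 and 57.8 CPM in SH neurons and at 131, 195 and 255 CPM in KA neurons. Glia had 103, 241 and 142 CPM in SH and 245, 228 and 494 CPM in KA. KA neurons lay above all SH neurons, and in glia KA replicate 2 fell below SH replicate 2. Stat3 was not called with 4 group means in neurons (logFC 1.59, SE 0.50, FDR 0.640 by edgeR) or in glia (logFC 0.99, SE 0.49, unadjusted p = 0.0599 by edgeR). With the replicate block it was upregulated in neurons (logFC 1.72, SE 0.32, FDR 0.0078 by edgeR) and in glia (logFC 1.00, SE 0.32, FDR 0.130 by edgeR). In neurons it also passed with a filter of 10 counts in every library (FDR 0.185), with separate fits of the cell types (FDR 0.117), both by edgeR, and with DESeq2 (FDR 0.0863).

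Socs3 (ENSMUSG00000053113, chr11:117966079-117970047, - strand), the feedback inhibitor, had the largest logFC of the members in neurons. In glia it did so with 4 group means (3.67 against 3.57 for Lif), and the order turned in other fits, among them that with the replicate block (3.60 against 3.61 for Lif) and that without KA glia replicate 3 (2.90 against 3.16). In neurons it was at 4.60, 4.97 and 3.31 CPM in SH and at 34.9, 87.1 and 167 CPM in KA. In glia it was at 24.7, 59.0 and 20.4 CPM in SH and at 284, 238 and 801 CPM in KA. The groups were widely apart in both cell types, with KA replicate 3 highest in each. Socs3 was upregulated in neurons (logFC 4.49, SE 0.66, FDR 0.0251 by edgeR) and in glia (logFC 3.67, SE 0.63, FDR 0.0295 by edgeR), and both calls were kept in each of the 6 fits without 1 library of that cell type. Single libraries set its size: the logFC was 3.83 without KA neurons replicate 3, and in glia it was 2.90 without KA replicate 3 and 4.29 without SH replicate 2. Its exons overlap no other gene.

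**Figure D3:**
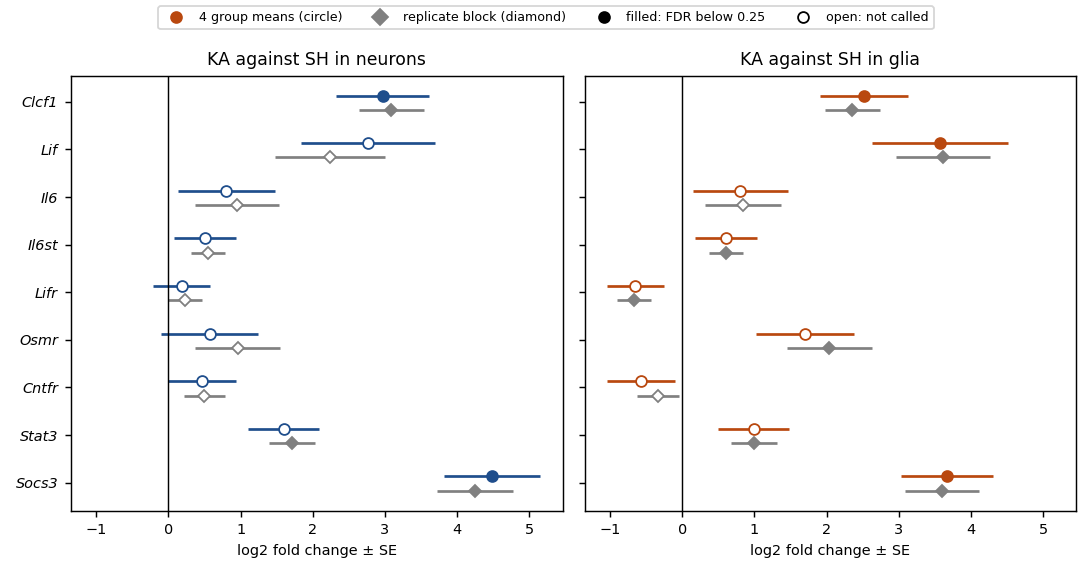
log2 fold change of KA against SH with its SE for the 9 members tested, in neurons (left) and glia (right), with 4 group means (circles) and with the replicate block (diamonds), filled where FDR was below 0.25. Socs3 and Clcf1 are filled in both panels with both fits, Lif in glia with both fits, and Stat3, Osmr, Il6st and Lifr are filled in 1 or both panels with the block and open without it.

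Promoters were searched for the STAT motif TTCNNNGAA, which reads the same on both strands, in windows from 250 bases before to 50 bases after the RefSeq start sites (GRCm38.p6). It was found in 2726 of 32851 windows, or 8.3%. Of 9 members with an entry, 1 held it: Socs3, at bases 154 to 146 before the start. A gene can have several windows, and counted by window, as in the 8.3%, the members held it in 1 of 15. Clcf1 has no entry. Among the genes known to respond to STAT3 that are described further on, 3 of the 17 with an entry held it, Sbno2, Icam1 and Gfap. Counted by window, that list held it in 4 of 23. The stretches upstream of annotated exons are shown for Socs3, upregulated in both cell types, and for Sbno2, with the motif in capitals. With 4 group means Sbno2 was upregulated in glia and not called in neurons. With the replicate block it was upregulated in neurons (logFC 2.16, FDR 0.00027 by edgeR) and in glia (logFC 2.08, FDR 0.00042 by edgeR). The stretches are chr11:117969452-117969616 and chr10:80101188-80101437, both read from the - strand.
Socs3: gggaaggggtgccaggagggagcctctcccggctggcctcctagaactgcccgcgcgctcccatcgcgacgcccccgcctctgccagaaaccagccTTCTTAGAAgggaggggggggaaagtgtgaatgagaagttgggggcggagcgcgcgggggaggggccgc
Sbno2: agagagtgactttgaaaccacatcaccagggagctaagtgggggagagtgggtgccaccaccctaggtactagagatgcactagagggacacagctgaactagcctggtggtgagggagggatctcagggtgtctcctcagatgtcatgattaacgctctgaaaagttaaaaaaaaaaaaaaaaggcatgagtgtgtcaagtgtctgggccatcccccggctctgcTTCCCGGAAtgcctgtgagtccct
Both stretches lie inside the GENCODE gene model of their gene, upstream of the start of a RefSeq transcript. A match of these letters is a description of the sequence and not a binding site, and binding of STAT3 was not measured.

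Genes whose log2 CPM resembled that of Socs3 most closely over the 12 libraries were Trib1 (Pearson r = 0.970), Tnc (0.965), Parp3 (0.959), Anxa2 (0.956) and Plce1 (0.956). Mean CPM of Trib1 was 6.52 in SH neurons, 37.8 in KA neurons, 30.3 in SH glia and 129 in KA glia. Among the members, Clcf1 (r = 0.925), Stat3 (0.909) and Lif (0.887) were most like Socs3, and Lifr (0.058) and Cntfr (0.040) least. These values describe 12 libraries that share 4 groups and 6 pools, so that much of r is the difference between groups.

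Members were then compared between neurons and glia, at FDR below 0.05. In SH, 2 of 9 members were lower in neurons than in glia against 4.67% of all genes, and none was higher (6.05%). They were Clcf1 (logFC -3.17, SE 0.65, FDR 0.0038 by edgeR) and Socs3 (logFC -3.01, SE 0.62, FDR 0.0042 by edgeR). In KA, 4 were lower against 3.98% of all genes and none was higher (5.88%): Clcf1 (logFC -2.72), Osmr (logFC -2.41), Socs3 (logFC -2.19) and Il6st (logFC -1.48). Without 1 library at a time, the calls of Osmr were lost without any 1 of the KA neurons libraries or KA glia replicate 1, those of Socs3 without KA neurons replicate 1 or 2 or KA glia replicate 3, and that of Il6st in all 6 fits. Since both fractions came from the same pools, the pool could enter as a block, and then 7 members were lower in neurons in SH (7.56% of all genes) and 7 in KA (6.65%). Lif was not among those of SH (FDR 0.0686 by edgeR) and Lifr not among those of KA (logFC 0.11). Cntfr was called in neither, with a logFC of -0.46 in SH and 0.39 in KA.

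Within pools, Socs3 in neurons was 18.6%, 8.43% and 16.2% of the level in glia in SH replicates 1, 2 and 3, and 12.3%, 36.6% and 20.8% in KA replicates 1, 2 and 3. The astrocytic markers in the same libraries of neurons were at 5.81%, 9.69% and 22.8% of glia in SH and at 16.1%, 19.7% and 33.7% in KA. These marker shares are median ratios to the mean of the glia group and not to glia of the same pool. With that difference in measure, the range of Socs3 in KA neurons overlapped that of the astrocytic markers. The mean of 441 CPM in KA glia multiplied by the highest astrocytic share comes to 149 CPM, and KA neurons had a mean of 96.3 CPM. With the median astrocytic share (19.7%) the product is 86.7 CPM, and with the highest microglial (7.19%) and oligodendrocytic (6.96%) shares it is 31.7 and 30.7 CPM. For Clcf1, at a mean of 8.74 CPM in KA neurons, the products with these 4 shares were 19.5, 11.4, 4.16 and 4.03 CPM, and for Stat3, at 194 CPM, they were 109, 63.4, 23.2 and 22.4 CPM. The part of glial RNA in the values of KA neurons was not tested. In the other direction, the mean of Socs3 in KA neurons multiplied by the highest neuronal share in KA glia (30.5%) comes to 29.4 CPM, beside a difference of 406 CPM between KA glia and SH glia. For Lif this product was 4.22 CPM beside 66.2 CPM, and for Clcf1 2.67 CPM beside 47.8 CPM. Stat3, Il6st and Osmr were upregulated in glia with the replicate block and not with group means alone. Their products were 59.2 CPM beside 160 CPM for Stat3, 15.98 CPM beside 50.3 CPM for Il6st and 3.36 CPM beside 40.5 CPM for Osmr. The product was thus a larger part of the difference for Stat3 and Il6st. The part of neuronal RNA in the values of KA glia was not tested.

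**Figure D4:**
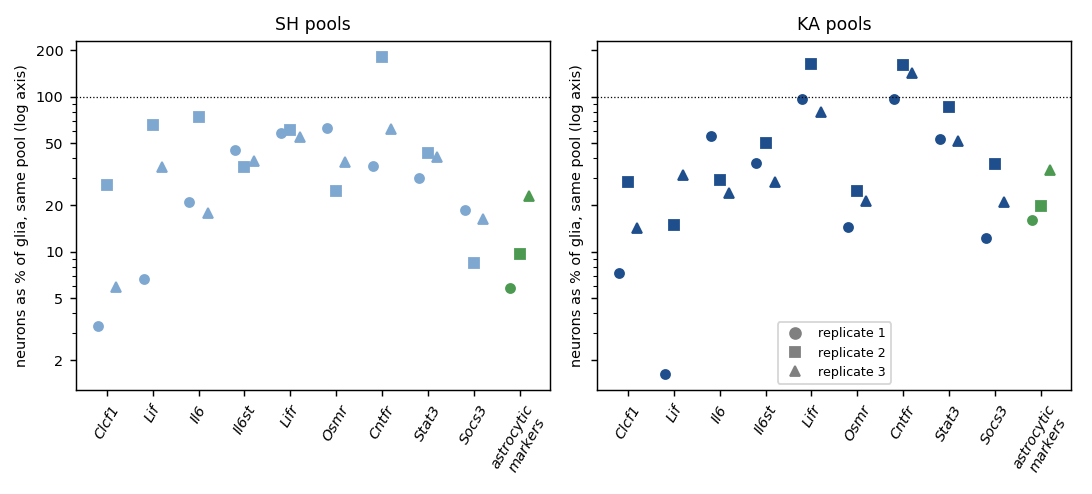
Level of each member tested, in neurons as a percent of its level in glia of the same pool (logarithmic axis, dotted line at 100%), in SH pools (left) and KA pools (right). Green points are the astrocytic markers, as a median ratio to the mean of the glia group and not within pools. Lifr and Cntfr sit nearest to the dotted line in KA. In KA, the ranges of Clcf1 (7.32% to 28.1%), Osmr (14.4% to 24.5%) and Socs3 (12.3% to 36.6%) overlap the astrocytic markers. So do those of Lif (1.62% to 31.2%), Il6 (24.0% to 56.2%) and Il6st (28.3% to 50.5%). Those of Stat3, Lifr and Cntfr do not. In SH, Lif spreads up to 66.0%.

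Whether the KA change differed between neurons and glia was tested as the difference of both logFC. No member differed at FDR 0.25 by edgeR, and none of the 37598 genes did (0% called), with 286 and 216 genes at an unadjusted p under 0.05 in either direction. The difference was 0.82 (SE 0.81) for Socs3, 0.45 (SE 0.83) for Clcf1 and -0.81 (SE 1.23) for Lif, in neurons minus glia. With the pool as a block 118 genes passed in 1 direction and 59 in the other, again without a member, and the smallest p values among members were those of Lifr (difference 0.89, FDR 0.687 by edgeR) and Osmr (difference -0.998, FDR 0.828 by edgeR). The calls of Lif in glia and not in neurons therefore do not show a difference between the cell types.

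Among other ligands of the family, Il11, which encodes interleukin-11, was at 0.804, 0.925 and 0.926 CPM in SH glia and at 14.0, 8.37 and 13.5 CPM in KA glia. The glial groups were widely apart, and Il11 was upregulated in glia (logFC 3.74, SE 0.69, FDR 0.0438 by edgeR), a call kept in each of the 6 fits without 1 glial library and lost without both libraries from 0.05 ng (logFC 3.74, FDR 0.328 by edgeR). With the replicate block, Osm, which encodes oncostatin M, was upregulated in glia (logFC 2.21, FDR 0.224 by edgeR) and Ctf1, the gene of cardiotrophin-1, was downregulated (logFC -1.62, FDR 0.151 by edgeR), and neither was called with 4 group means.

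None of the 3 other receptor subunits (Il6ra, Il11ra1 and Il27ra) was called in either cell type, with a median logFC of -0.04 in neurons and -0.59 in glia. The genes of the JAK kinases Jak1, Jak2 and Tyk2 and of the transcription factors Stat5a and Stat5b were not called in either cell type. With the block, Stat5b was upregulated in neurons and Il11ra1 downregulated in glia. Among 13 other inhibitors of the pathway, Socs2 was upregulated in glia (logFC 1.79, SE 0.45, FDR 0.196 by edgeR). It was at 9.57, 20.98 and 10.3 CPM in SH glia and at 28.9, 33.1 and 79.7 CPM in KA glia, without overlap, and the call was lost without SH glia replicate 1 or 3 or KA glia replicate 2 or 3. Socs1 and Cish had KA glia above all SH glia (logFC 1.37 and 1.70), were not called with 4 group means and were called with the block. Pias1, which encodes a SUMO ligase, was downregulated in glia with the block (logFC -0.68, FDR 0.185 by edgeR) and not called without it. The list's median logFC was 0.20 in neurons and 0.10 in glia.

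Of 20 genes known to respond to STAT3 in some cell type, 5 were upregulated in neurons (0.279% of all genes tested) and 10 in glia (0.442%). None was downregulated (0.0612% and 0.306% of all genes). Their median logFC was 1.48 in neurons and 1.93 in glia, beside 0.00048 and 0.14 over all genes tested. Many of them also respond to other signals, several were known to change in these samples when the list was written, and the list is not independent evidence that STAT3 was active. With the block the counts upregulated were 13 and 14, against 1.94% and 3.47% of all genes. Without both libraries from 0.05 ng they were 3 in neurons (0.184% of all genes), where Pim1 and Serpina3n were lost. In glia they were then 3 (0.101% of all genes), with Serpina3n, Timp1 and Bcl3 left.

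In neurons the 5 were Timp1, Vim, Fos, Pim1 and Serpina3n. Timp1, an inhibitor of matrix metalloproteinases, was at 0, 0.211 and 0.449 CPM in SH neurons and at 5.81, 3.82 and 13.04 CPM in KA neurons (logFC 4.99, SE 0.75, FDR 0.0251 by edgeR). Vim, which encodes the intermediate filament vimentin, was at 1.33, 1.60 and 4.45 CPM in SH neurons and at 8.71, 12.6 and 30.6 CPM in KA neurons (logFC 2.80, SE 0.56, FDR 0.0943 by edgeR). The KA libraries of both genes lay above all SH libraries. Fos, the immediate early transcription factor, had a logFC of 3.19, the kinase gene Pim1 of 2.59 and Serpina3n, a serine protease inhibitor, of 1.93. The call of Timp1 was kept in each of the 6 fits without 1 library of neurons. That of Vim was lost on leaving out replicate 1 or 2 of the SH neurons or replicate 3 of the KA neurons, and those of Fos, Pim1 and Serpina3n were kept only without KA neurons replicate 1. Vim and Timp1 are expressed by astrocytes, whose markers in KA neurons stood at 16.1% to 33.7% of glia. The part of glial RNA was not tested for any of the 5 genes, among them Serpina3n, whose high level in KA glia is given below.

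In glia the 5 with the smallest p values were Serpina3n, Timp1, Bcl3, Cebpd and Fos. Serpina3n was at 60.1, 38.0 and 38.2 CPM in SH glia and at 744, 698 and 1530 CPM in KA glia (logFC 4.45, SE 0.51, FDR 0.0059 by edgeR). Timp1 was at 1.05, 0.535 and 0.717 CPM in SH glia and at 23.7, 15.1 and 20.8 CPM in KA glia (logFC 4.71, SE 0.72, FDR 0.0214 by edgeR). Bcl3, a nuclear partner of NF-kappa-B, was at 5.79, 10.1 and 3.23 CPM in SH glia and at 51.7, 66.7 and 177 CPM in KA glia (logFC 3.95, SE 0.68, FDR 0.0295 by edgeR). In these genes the lowest KA library exceeded the highest SH library several times. Cebpd, a transcription factor of the acute phase response, had a logFC of 1.99 and Fos of 2.74. The calls of Serpina3n, Timp1, Bcl3 and Cebpd were kept in each of the 6 fits without 1 glial library, those of Cebpd and Fos were lost without both libraries from 0.05 ng (FDR 0.569 and 0.560 by edgeR), and that of Fos was also lost without SH glia replicate 1 or 3 or KA glia replicate 3. Of the exon bases of Cebpd, 15% overlap Spidr on the opposite strand. The others upregulated in glia were Il4ra, Myc, Sbno2, Cebpb and Junb, with logFC from 1.47 to 2.25, and each of these calls was lost in 3 to 5 of the 6 fits. Gfap, the filament of reactive astrocytes, was at 136, 119 and 176 CPM in SH glia and at 568, 360 and 720 CPM in KA glia, and was not called with 4 group means but was with the block (FDR 0.0014 by edgeR). Bcl2l1, Ccnd1 and Hif1a, with logFC between -0.55 and 0.14, were not called in either cell type.

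**Figure D5:**
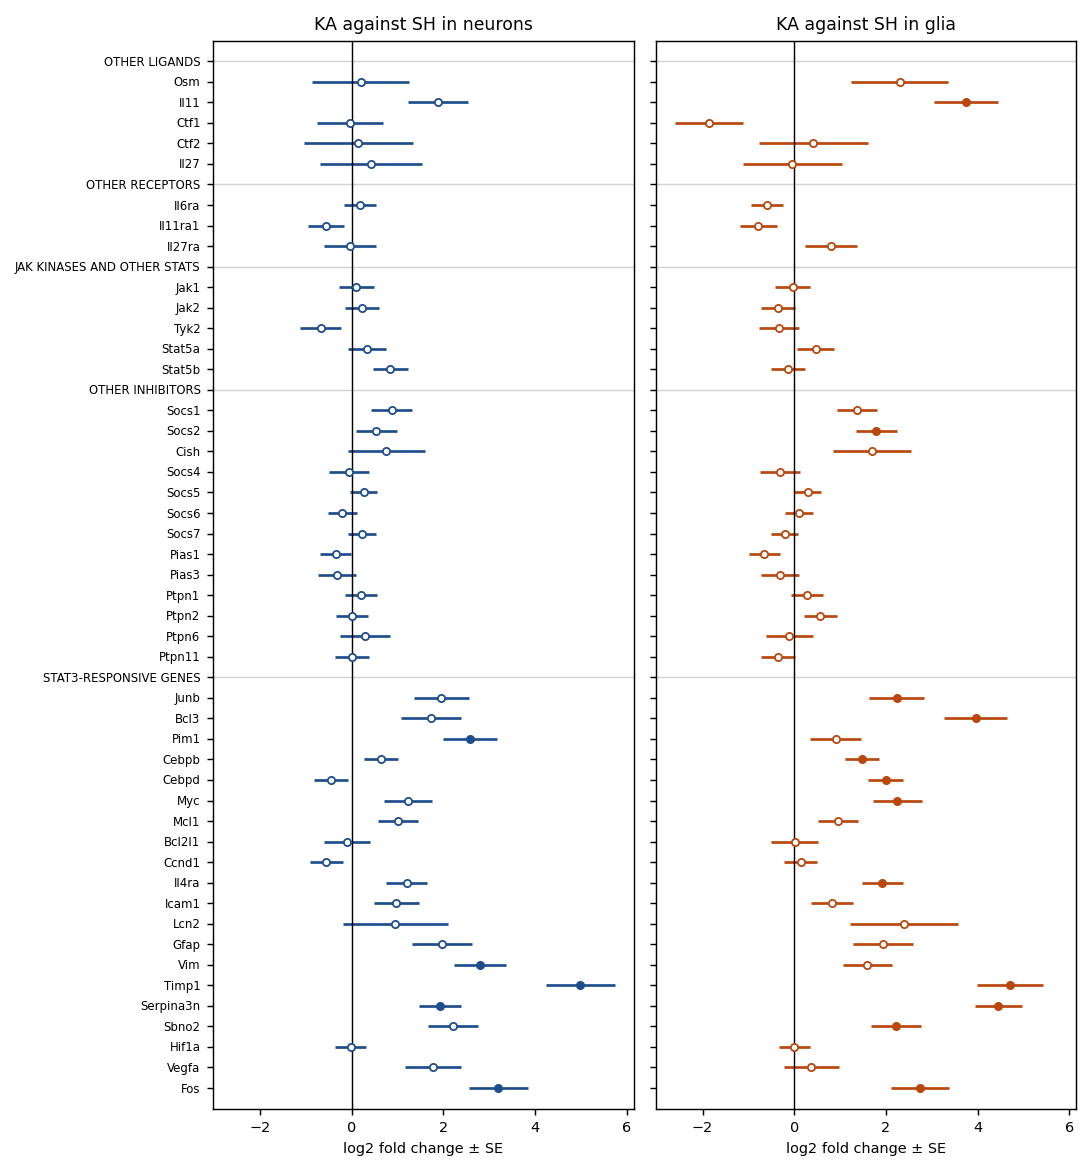
log2 fold change of KA against SH with its SE for the other genes of the pathway, by list, in neurons (left) and glia (right), filled where FDR was below 0.25 with 4 group means. Filled points are mostly in the list of STAT3-responsive genes, 5 of 20 in neurons and 10 of 20 in glia. Of all genes tested, 0.279% and 0.442% were upregulated. No filled point is among the other receptors or the JAK kinases and STAT5 genes shown.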

How the data were processed

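mRNAseq libraries of sorted nuclei were analysed, 12 in all, and RRBS data were not used here. The authors trimmed reads with Trim Galore 0.4.3 per the labels, aligned them to mm10 with Rsubread, and deposited counts of uniquely mapped reads per gene (featureCounts, default parameters, GENCODE M16), not normalized. With those defaults the strand is ignored and reads shared by exons of different genes are dropped. Symbols, positions and exon lengths came from GENCODE M21 and promoters from RefSeq.

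Genes without a symbol (105 of 53379) were left out. edgeR 4.0.16 in R 4.3.3 was used with filterByExpr (minimum count 10, minimum total 15), TMM, glmQLFit with legacy=TRUE and 4 group means, and Benjamini-Hochberg adjustment over 37598 genes. The cell types were handled apart in the study; here 1 fit held all libraries, and separate fits were an alternative, beside other scalings, filters, tests and thresholds, blocks, and each library left out in turn. SE is the size of logFC over the square root of F. A share of markers is the median ratio of CPM in a library to the mean of the source fraction in the same treatment. Genes of at least 10 CPM in that mean were used. Correlations used log2 CPM with a prior count of 2. DESeq2 1.42.0 and limma 3.58.1 served alternatives; the code was tested on simulated data. Figures were drawn with matplotlib 3.10.9.

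KA and SH libraries of the same replicate number deviated together from their group means (correlation across genes, for replicates 1, 2 and 3, of 0.399, 0.264 and 0.551 among neurons, and of 0.457, 0.543 and 0.764 among glia), so a replicate block was fitted. The pairing is seen in the data and not stated by the study. Pools are the samples, and p values measure the spread between pools.

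Members, lists and tests were chosen with earlier results of these data known. Named genes are the members, in each other list and cell type the 5 called genes with the smallest p, and the 5 genes most like Socs3. Other genes of the lists (Gfap, Sbno2, Icam1, Il4ra, Myc, Cebpb, Junb, Socs1, Cish, Stat5b, Il11ra1, Osm, Ctf1, Pias1, Bcl2l1, Ccnd1, Hif1a, Jak1, Jak2, Tyk2 and Stat5a) were picked after their values were seen. Of the lists, 2 genes are not reported.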

Additional observations from a re-analysis of the deposited data

How the results depend on the processing

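Socs3 kept its calls in neurons and glia under each alternative that was run. The count of members upregulated in neurons was 2 and fell to 1 with limma-voom and at an FDR threshold of 0.05, and was 3 with DESeq2, the replicate block or separate fits of the cell types; without 1 library it ranged from 1 to 3. The count in glia was 3, rose to 6 with the replicate block and 4 with DESeq2, and fell to 2 with 10 counts in every library. That filter left Clcf1, with 6 counts in SH neurons replicate 1, untested in every comparison. In neurons the count under that filter was 2, with Stat3 called and Clcf1 untested. In glia the count was 1 at FDR 0.05 and without both libraries from 0.05 ng. Without 1 library the count in glia ranged from 1 to 3. Members downregulated in glia numbered 1 with the block. The replicate block changed no other call of a member than those given. Members lower in neurons than in glia in SH numbered 5 with library totals, 4 with 10 counts in every library or DESeq2 and 7 with the pool as a replicate block, and 2 to 4 without 1 library; in KA they numbered 7 with the pool block and 1 to 3 without 1 library. No other member call was made with the difference between cell types.

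Signs turned in values that were not called. The difference of the KA change (neurons minus glia) of Il6 was 0.019 without a filter, 0.11 with the replicate block and 0.12 with the pool block; that of Il6st was 0.0073 without a filter and 0.10 without both low-input libraries. Without 1 library this difference ranged from -0.059 to 1.56 for Clcf1, from -2.57 to 0.66 for Lif, from -0.48 to 0.75 for Il6 and from -0.47 to 0.38 for Il6st. Lifr in neurons against glia in KA had a logFC of -0.13 with RLE factors, -0.36 with library totals, -0.071 without a filter, -0.24 with 10 counts in every library, -0.13 with DESeq2, -0.38 without the low-input libraries, and -0.38 to 0.39 without 1 library. Cntfr had -0.081 with library totals. The cause was not tested.

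Library totals moved the median logFC of all genes to 0.11 in neurons and 0.42 in glia, and the calls in glia from 166 higher and 115 lower to 514 and 226. Neurons against glia had 2276 higher and 1757 lower in SH, 1624 and 1945 with RLE and 2105 and 2662 with library totals, and in KA 2211 and 1497, and 1906 and 2683 with library totals. Cntf, with at most 11 counts, was not tested. In GENCODE M21 it shares 78.9% of its exon bases with Zfp91, where reads would be dropped. 3 pools per group, nuclear RNA and incomplete sorting limit all values.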
